A study of Mus musculus with 25 samples.

Results

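The methylation of CpG sites was followed across diets in 10 genes of blood and lymph vessel endothelium: Nos3, Eng, Tie1, Kdr, Flt4, Cdh5, Notch4, Robo4, Esam and Egfl7. The members were chosen by gene symbol, as all CpGs that the deposited table assigns to these 10 genes with an average coverage of at least 10 reads. That gave 293 CpGs of the 260376 CpGs that reach this coverage in 15522 genes. Of the 293, 201 carry the table's label gene body, 58 first exon, 23 3'UTR and 11 5'UTR. DNA came from mammary fat pads of mice. Reduced representation bisulfite sequencing (RRBS) was used, in which the enzyme MspI cuts DNA at CCGG and only short fragments are read. The level of a CpG is the percentage of reads that were methylated.

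All mice were wild-type C57BL/6N. Control mice (n = 5) ate the control diet D12450J throughout. All others first became obese on a 60% high-fat diet (D12492) and then either stayed obese (Obese) or lost weight on 1 of 4 diets: an unrestricted low-fat diet (LFD, n = 3 used), a low-fat diet with 30% fewer calories (LFCR, n = 4), a Mediterranean-style diet with 30% fewer calories (MCR, n = 3) or intermittent calorie restriction (ICR, n = 5). Every mouse, Control included, received an injection of E0771 mouse mammary cancer cells into the 4th mammary fat pad 25 weeks after randomization, and the pad on the opposite side was taken at the end. The weight-loss mice differ from Control in both the earlier obesity and the later diet, and these cannot be told apart. The ages of the mice are not given in the sources used here. The sample titles hold the word tumor while the tissue label says normal mammary tissue. No expression was measured, so the tissue could not be checked by marker expression, and the pads are bulk tissue in which a different share of endothelial cells and a different level within those cells cannot be told apart.

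The libraries of Obese mice 27, 28 and 40 and LFD mouse 46 stand apart, and these 4 were left out, which leaves 21. The endothelial genes have 12 tested CpGs that average below 5% in Control. Averaged over these, the 4 libraries were at 49.9% to 60.3% and all others at 0.875% to 2.34%. Obese is then represented by mouse 22 alone, whose value is given without a test. Read depth per library is unknown, so each level is printed without a counting interval. The used mice had a value at 188 (MCR mouse 95) to 293 of the 293 CpGs.

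Vascular endothelium lines vessels, exchanges nutrients and leukocytes with the tissue and sprouts in response to growth factors. VEGF receptors, the Tie and endoglin receptors and Notch signalling steer sprouting and vessel stability, junction proteins hold the layer together, and endothelial nitric oxide synthase makes the gas that relaxes vessels. Methylation of CpGs near a gene's start is generally low where the gene is active, and genes of a cell type are often methylated in the other cell types of a tissue.

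RefSeq windows from 250 bases before to 50 bases after the start were used for 7 of the 10 genes (9 windows, build GRCm38.p6). The 250 upstream bases of 3 genes are shown to set the starts of Eng and Tie1, where CpGs around the start were read, beside the more CpG-dense start of Flt4. CpGs are in capitals, and each sequence is written in the direction of transcription.
Eng, chr2:32646345-32646594, plus strand: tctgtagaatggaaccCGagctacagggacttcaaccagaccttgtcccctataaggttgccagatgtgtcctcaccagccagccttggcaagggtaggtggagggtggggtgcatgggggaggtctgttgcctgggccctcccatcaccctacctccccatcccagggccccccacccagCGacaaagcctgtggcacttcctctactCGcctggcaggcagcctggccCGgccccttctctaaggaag
Tie1, chr4:118489850-118490099, minus strand: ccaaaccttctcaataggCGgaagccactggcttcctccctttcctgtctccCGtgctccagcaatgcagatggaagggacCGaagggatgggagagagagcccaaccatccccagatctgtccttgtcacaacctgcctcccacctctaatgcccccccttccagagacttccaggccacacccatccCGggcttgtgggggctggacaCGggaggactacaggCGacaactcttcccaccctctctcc
Flt4, chr11:49609429-49609678, plus strand: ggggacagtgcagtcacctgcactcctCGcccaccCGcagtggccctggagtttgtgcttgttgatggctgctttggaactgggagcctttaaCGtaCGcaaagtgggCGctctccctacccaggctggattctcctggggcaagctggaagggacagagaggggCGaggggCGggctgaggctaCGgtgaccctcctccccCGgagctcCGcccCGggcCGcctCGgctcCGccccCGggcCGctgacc
The 3 stretches hold 4, 6 and 16 CpGs. In Tie1 the CpGs 24 and 39 bases before the start, counted to the G as printed, were among those measured. No upstream CpG of the other 2 stretches was. The 300-base windows hold 6 CpGs for Eng, 7 for Tie1 and 26 for Flt4, and the median of all 32851 windows is 7. The MspI site CCGG, the same on both strands, occurs 2 times in the Eng window, 1 time in Tie1 and 5 times in Flt4, and 52.8% of all windows hold it. GGAA, the core bound by ETS factors, occurs on either strand 4, 9 and 2 times, and 96% of all windows hold it.

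Of the tested CpGs of these genes, 48.9% were lower in the fat pads of MCR mice than in those of Control mice and 2.22% were higher. A CpG was tested if at least 3 mice of each of the 5 groups with several mice had a value, which 180 of the 293 CpGs did. These tested CpGs belong to 8 genes, and neither Kdr nor Cdh5 has one. At an adjusted p under 0.05 (limma, Benjamini-Hochberg over all 129217 tested CpGs), 88 of the 180 were lower in MCR and 4 were higher. Of all tested CpGs 32.8% were lower and 4.54% higher. The counts by gene given below are to be read against these shares. The median difference was -12.8 percentage points at the endothelial CpGs and -7.3 points at all CpGs. Of the 4 higher CpGs, 3 lie in Eng and 1 in Tie1.

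**Figure D1:**
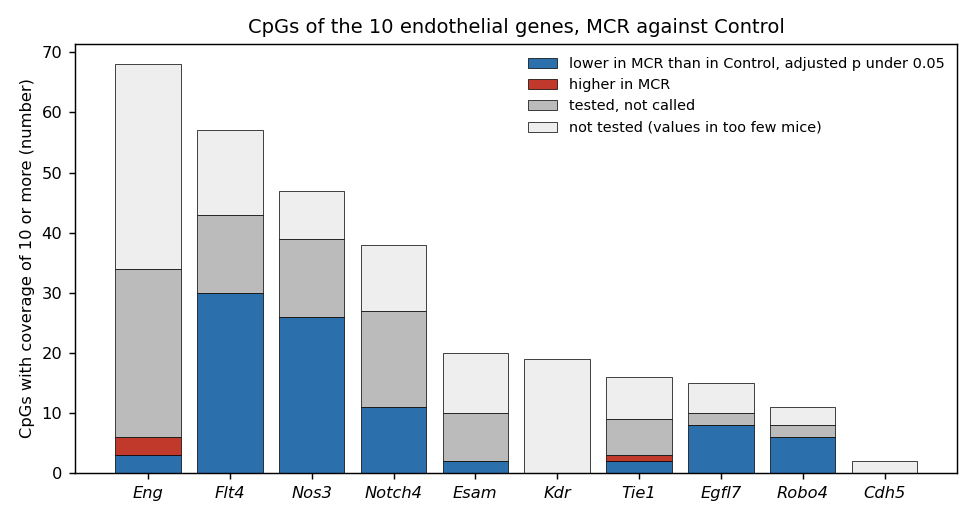
CpGs with coverage of 10 or more in each of the 10 genes (bars, number of CpGs), split into those lower or higher in MCR than in Control at an adjusted p under 0.05, those tested and not called, and those with values in too few mice. Flt4 and Nos3 hold 30 and 26 of the 88 lower CpGs, and the higher ones are in Eng and Tie1.

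The differences varied with the starting level and the position of the CpGs, and the part of these in the endothelial shares was not tested. Where Control was at 50% to 70%, the median MCR difference was -24.5 points over 35 endothelial CpGs and -19.6 points over all CpGs of that range. Between 70% and 90% it was -16.6 against -12.3 points, and between 10% and 30% it was 3.96 against -4.68 points. Of the 31 endothelial CpGs between 10% and 30%, 12 are in Eng, 11 of them above Control, and 7 in Nos3, all below. By the table's features, 72 of 120 gene body CpGs were lower and none higher, where 34.6% and 4.71% of all body CpGs were, with a median of -16 points against -8.12 points. Of 34 first-exon CpGs, 7 were lower and 4 higher, where 25.5% and 3.61% of all first-exon CpGs were, with a median of 7.92 points against -3.3 points. Eng supplies 14 of these 34, all above Control, while the 4 of Nos3 were all below, by -34.5 to -48.1 points, as were 7 of the 8 of Esam. In CpG islands, 24 of 36 endothelial CpGs were lower and none higher, where 21% and 3.5% of all island CpGs were, with a median of -18.8 against -1.17 points. All 24 of these island CpGs are in Flt4, which supplies 28 of the 36.

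CpGs were also joined into runs, at least 3 tested CpGs of a gene with no more than 100 bases between neighbours. The endothelial genes hold 20 such runs, of 14815 in all. In MCR 15 runs were lower and 1 was higher, next to 57.1% lower and 7.2% higher of all runs. Their median difference was -12.6 points, and -9.47 points over all runs. Because the mean level over 95333 CpGs read in all 21 libraries was 46.5% to 47.2% in the MCR mice and 54.1% to 58.3% in Control, each run was also expressed relative to its mouse's mean. This centring moved the median of all runs to -0.169 points. On that scale 49 endothelial CpGs were lower in MCR and 32 higher, and 15.3% and 23.5% of all CpGs were. Likewise 7 endothelial runs were lower in MCR and 2 were higher, and 24.3% and 20.4% of all runs were. Subtracting 1 mean per mouse shifts CpGs near 0% as much as those at mid level.

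**Figure D2:**
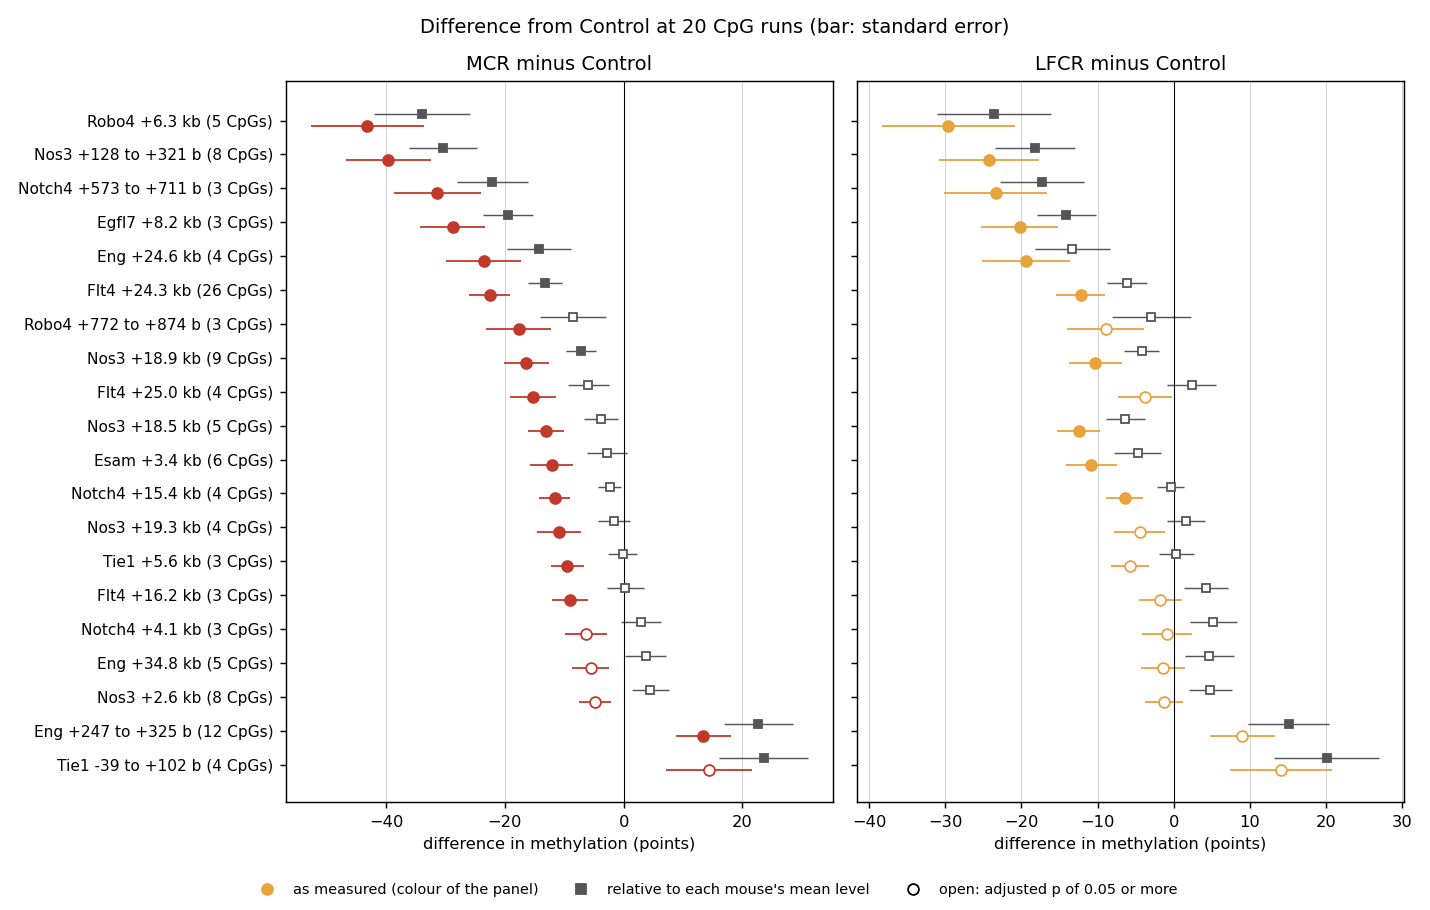
Difference from Control in percentage points (x axis) at the 20 runs (rows, named by gene, distance from the RefSeq start and number of CpGs) for MCR on the left and LFCR on the right, with standard errors. Circles are as measured, squares are relative to each mouse's mean, and filled symbols have an adjusted p under 0.05. In MCR 7 squares stay filled to the left, and the starts of Eng and Tie1 lie to the right.

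Nos3, the endothelial nitric oxide synthase, spans chr5:24364816-24384474 and had 39 tested CpGs, of which 26 were lower in MCR and none higher. Its first run, 128 to 321 bases into the gene (chr5:24364944-24365137, 8 CpGs, first exon and body), had levels of 75.1%, 80.5%, 65.9%, 68.2% and 77.9% in Control mice 1, 2, 5, 10 and 13. In MCR mice 85, 95 and 96 it had 30.9%, 30% and 40.6%. The groups do not overlap, and the means were 73.5% ± 6.26 (SD, n = 5) and 33.8% ± 5.86 (SD, n = 3). The difference was -39.7 points (SE 7.16, adjusted p = 0.000397), and -30.4 points relative to the mouse means (adjusted p = 0.000651). All 8 CpGs of the run were called lower, and the first of them was both the CpG of smallest p and of largest difference in the gene, with 82.2% ± 5.28 in Control (SD, n = 5) and 34% ± 6.61 in MCR (SD, n = 3), adjusted p = 0.000828.

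LFCR mice split at this run, with 33.2% and 31.8% in mice 63 and 67 and 62.3% and 69.5% in mice 69 and 72. Their mean of 49.2% ± 19.5 (SD, n = 4) was lower than Control (adjusted p = 0.0121). Mice 63 and 67 were at the MCR level and mice 69 and 72 at or near the Control range. LFD was at 61.6% ± 6.26 (SD, n = 3), ICR at 62.3% ± 7.76 (SD, n = 5) and Obese mouse 22 at 68.9%, within the range of Control.

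The 3 runs at the far end of Nos3 were lower in MCR too. At 18.5 kb (chr5:24383325-24383378, 5 CpGs) Control mice had 27.2%, 34.7%, 29.1%, 20.9% and 33.2% and MCR mice 12.9%, 14.8% and 20%, which do not overlap (difference -13.1 points, SE 3.02, adjusted p = 0.00153). LFCR mice 63, 67, 69 and 72 had 18.8%, 14.2%, 15.3% and 18%, all below every Control mouse (adjusted p = 0.00804). This is the run of smallest p in LFCR among the endothelial genes.

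At 18.9 kb (chr5:24383700-24384030, 9 CpGs, body and 3'UTR) the Control levels were 23.1%, 29.9%, 22.9%, 21.5% and 25.9%, and those of MCR 9.32%, 7.58% and 7.78% (adjusted p = 0.00158). The MCR difference relative to the mouse means was -7.12 points (adjusted p = 0.0287). LFCR mice 63 and 67, at 5.87% and 8.92%, were again low, and mice 69 and 72 had 18.4% and 24.2% (adjusted p = 0.0288). That LFCR call also ended with Control mouse 2 or 13 left out (adjusted p = 0.0758 and 0.0537). At 19.3 kb (chr5:24384144-24384278, 4 CpGs, 3'UTR) Control mice had 62.1%, 65.1%, 63.8%, 56.4% and 61% and MCR mice 47.3%, 55.8% and 49.2% (adjusted p = 0.0164). Without MCR mouse 85 or 96 this last call was lost (adjusted p = 0.0763 and 0.0554). Relative to the mouse means the runs at 18.5 and 19.3 kb differed by -3.8 and -1.59 points and were not called.

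One Nos3 run did not pass the test. The 8 CpGs labelled 5'UTR 2610 to 2804 bases into the gene (chr5:24367426-24367620) were at 61.2% ± 3.85 in Control (SD, n = 5) and 56.4% ± 4.84 in MCR (SD, n = 3), adjusted p = 0.123. Its single CpGs ran from -21 to 10.1 points, and without MCR mouse 85 the run was called (-7.18 points, adjusted p = 0.046). The authors assigned 23 Nos3 CpGs to Gm15587 as well and 2 to Atg9b, so their values belong to both genes.

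Among the receptors, Eng went the other way at its start. Endoglin, its product, is the co-receptor for BMP9 and TGF-beta on endothelial cells, and the gene spans chr2:32646595-32682669. The run 247 to 325 bases into the gene (chr2:32646842-32646920, 12 CpGs, first exon) had 24.6%, 15.6%, 20.3%, 27% and 21.8% in Control mice 1, 2, 5, 10 and 13 and 39.3%, 35.9% and 30.6% in MCR mice 85, 95 and 96. Every MCR mouse was above every Control mouse. The difference was 13.4 points (SE 4.66, adjusted p = 0.0185) and 22.7 points relative to the mouse means (adjusted p = 0.00433). Without MCR mouse 85 or 95 it was 11.4 or 13.1 points and no longer called (adjusted p = 0.0804 and 0.0513).

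The other weight-loss groups had Eng start levels above the Control mean as well. LFD mice 42, 47 and 48 had 40.6%, 27.4% and 43.2%, all above Control, with a difference of 15.2 points (SE 4.66, unadjusted p = 0.00427, adjusted p = 0.0809). Without LFD mouse 47 it was 20.1 points with an adjusted p of 0.0309. LFCR mice had 32.7%, 43.8%, 26.5% and 20.7% (difference 9.04 points, adjusted p = 0.0949, and 0.046 relative to the mouse means), and without LFCR mouse 72 the difference was 12.4 points (adjusted p = 0.0229). ICR mice had 28.4%, 38.9%, 31%, 25.2% and 25.6% (difference 7.97 points, adjusted p = 0.267). Obese mouse 22, at 15%, was below all 5 Control mice.

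The direction was the same along the whole first exon of Eng. All 14 tested CpGs there were above Control in MCR, by 7.61 to 19.1 points, and 3 were called. The called ones lie 22, 284 and 304 bases from the start, with 5.83%, 15.3% and 27.2% in Control and 17%, 34.4% and 45.2% in MCR (adjusted p = 0.0158, 0.0279 and 0.0284). The upstream sequence shown above ends just before this exon.

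**Figure D3:**
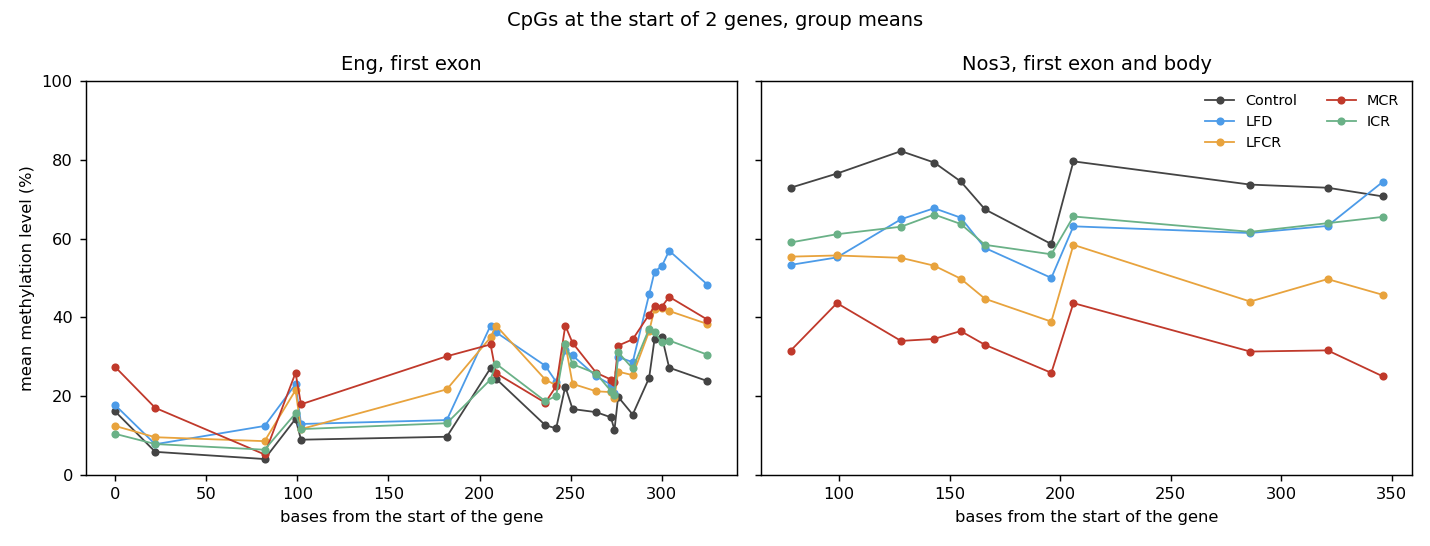
Mean methylation level in percent (y axis) of each CpG against its distance in bases from the RefSeq start of Eng (left) and Nos3 (right), 1 line per group; CpGs that were not tested are included. In Eng the MCR and LFD lines lie above Control over the last 12 CpGs, and in Nos3 the MCR line lies lowest at every CpG drawn, 78 to 346 bases from the start.

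Further into Eng the levels were lower on average. Of the 34 tested CpGs of the whole gene 3 were called lower, where 32.8% of all CpGs were. These 3 are among its 15 tested body CpGs, and 34.6% of all body CpGs were lower. None of its 5 tested CpGs in the 3'UTR was called, where 37.3% of all 3'UTR CpGs were lower. At 24.6 kb (chr2:32671236-32671286, 4 CpGs, body) Control mice had 94.3%, 80.5%, 85.5%, 96.7% and 87.6% and MCR mice 66.9%, 64.7% and 64.3%. The MCR mice were all below Control, by -23.6 points (SE 6.27, adjusted p = 0.00382), and by -14.3 points relative to the mouse means (adjusted p = 0.0365). LFCR mice 63 and 67 had 54.4% and 57.3% and mice 69 and 72 had 86.3% and 80.2% (adjusted p = 0.0169). The single Eng CpG of smallest p is in this run, with 88.6% ± 7.1 in Control (SD, n = 5) and 61.1% ± 6.48 in MCR (SD, n = 3). The largest difference at 1 CpG was at 32654603, from 85.5% ± 11.4 (SD, n = 4) to 52.7% ± 11.9 (SD, n = 3), adjusted p = 0.0312, a call that depended on Control mice 2 and 10 and MCR mice 85 and 95 (adjusted p = 0.0653, 0.0757, 0.0643 and 0.128 with each of them left out). At 34.8 kb (chr2:32681361-32681644, 5 CpGs, 3'UTR and body) the means were 83.6% ± 4.62 (SD, n = 5) and 78% ± 5.48 (SD, n = 3), adjusted p = 0.126.

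Tie1, the orphan partner of the angiopoietin receptor Tie2, spans chr4:118471191-118489849 on the minus strand. Its start run, from 39 bases before to 102 bases after the start (chr4:118489747-118489888, 4 CpGs), was also higher in MCR on average without passing the test. Control mice 2, 5, 10 and 13 had 25%, 19.2%, 34.1% and 20.2%, and MCR mice 85, 95 and 96 had 55.6%, 24.1% and 37.3%. The groups overlap, since mouse 95 lies within the Control range (difference 14.4 points, SE 7.2, adjusted p = 0.0886). Without MCR mouse 95 it was 21.8 points (adjusted p = 0.022). Relative to the mouse means it was 23.6 points in MCR (adjusted p = 0.0163) and 20.1 points in LFCR (adjusted p = 0.0433).

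LFCR mice had 49.8%, 39.3%, 27.8% and 37.9% at the Tie1 start as measured (difference 14.1 points, adjusted p = 0.0964). All 4 CpGs were above Control in MCR, and the one 49 bases into the gene passed the test, at 16.4% ± 6.32 in Control (SD, n = 4) and 42.7% ± 21.9 in MCR (SD, n = 3), adjusted p = 0.048. Leaving out any Control or MCR mouse with a value there, other than MCR mouse 95, ended this call, with adjusted p from 0.0578 to 0.253. Mice of the other groups were not left out for this contrast. Control mouse 1 had no value there, and without it the difference stayed at 26.3 points with an adjusted p of 0.0513. The 5.6 kb run of Tie1 (chr4:118484131-118484255, 3 CpGs, body) had 86.9%, 85.9%, 85.6%, 76.3% and 84.4% in Control and 74.8%, 71.9% and 76.3% in MCR, with MCR mouse 96 at the level of Control mouse 10 (adjusted p = 0.00668). Its difference relative to the mouse means was -0.184 points. The Tie1 CpG of smallest p, at 118484131, was at 95.1% ± 4.51 in Control (SD, n = 4) and 79.9% ± 1.08 in MCR (SD, n = 3), adjusted p = 0.00173.

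**Figure D4:**
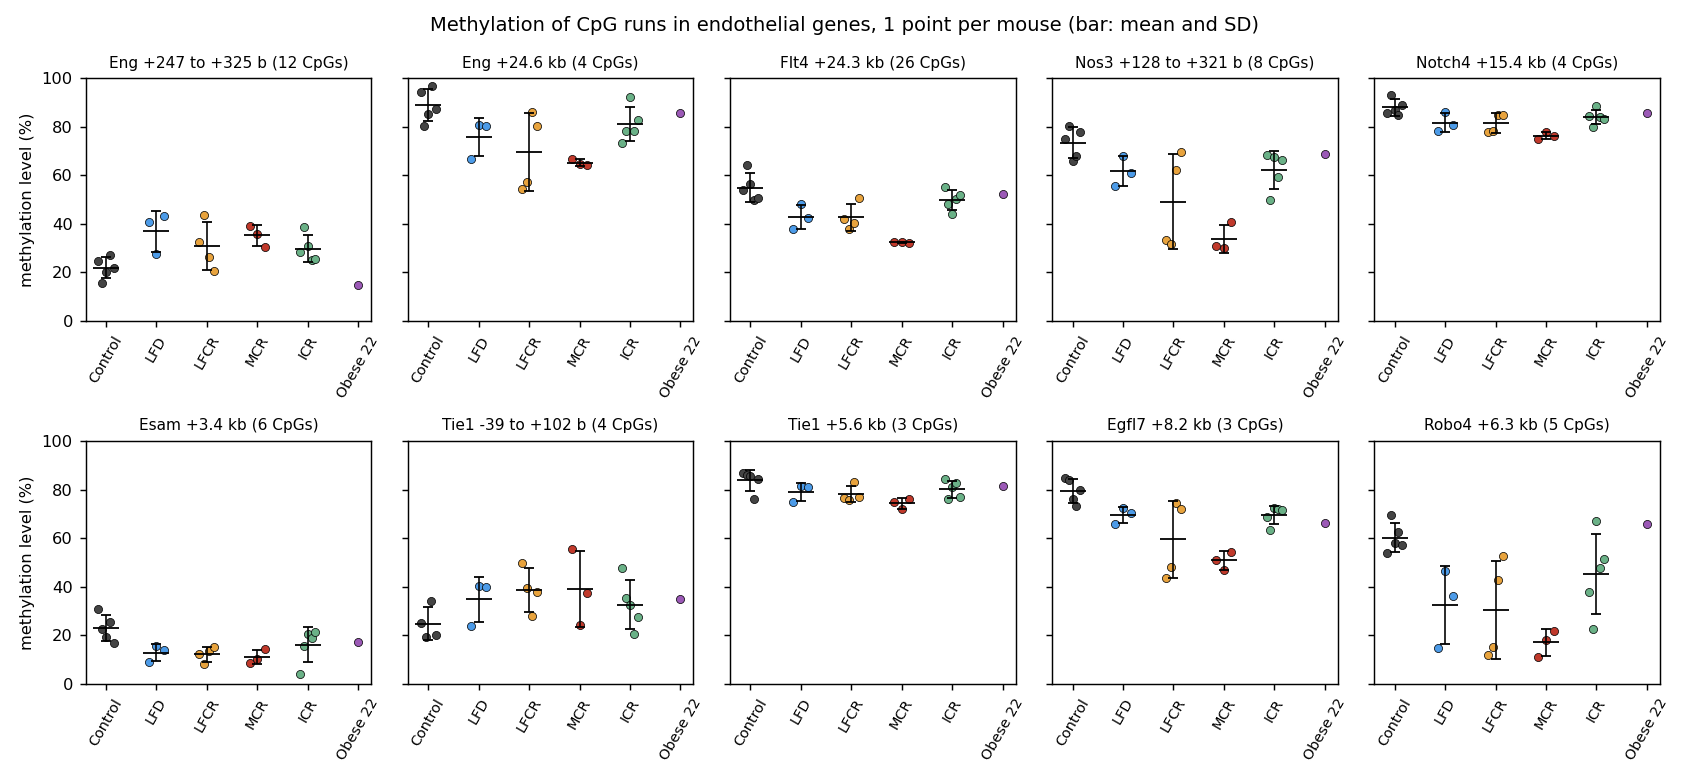
Methylation level in percent (y axis) of 10 runs in each mouse by diet group, for each gene the run of smallest p in MCR against Control, plus the start runs of Eng and Tie1; bars are group means and SD, and Obese is mouse 22 alone. At the Nos3 start the MCR mice sit between 30% and 40.6%, below Control, and at the Eng start between 30.6% and 39.3%, above Control.

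Flt4 encodes VEGFR3, the VEGF-C receptor of lymphatic and sprouting endothelium, and spans chr11:49609679-49652739. It carried the most called CpGs, 30 lower and none higher of 43 tested. A CpG island inside the gene, 24.3 kb from the start (chr11:49633992-49634369, 26 CpGs), gave the smallest p of the 20 runs. Control mice had 53.8%, 64.2%, 56.6%, 49.9% and 50.6%, and the 3 MCR mice had 32.5%, 32.5% and 32.3%. The run levels of the MCR mice were thus nearly alike and all below Control. The difference was -22.6 points (SE 3.51, adjusted p = 0.000285), and -13.3 points relative to the mouse means (adjusted p = 0.00135). Single CpGs varied more between these mice, as at 49634369 with 46.7%, 20% and 11.8% in MCR mice 85, 95 and 96.

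All 26 CpGs of the Flt4 island were lower on average in MCR, by -7.13 to -40.7 points, and 24 were called. The CpG of smallest p had 44.2% ± 5.12 in Control (SD, n = 5) and 16.9% ± 7.7 in MCR (SD, n = 3), and the one of largest difference 64% ± 9.81 (SD, n = 5) and 23.3% ± 4.83 (SD, n = 3). LFCR mice had 41.9%, 38%, 40.4% and 50.8% (difference -12.2 points, adjusted p = 0.0111), with mouse 72 inside the Control range. LFD mice had 38%, 48.2% and 42.4%, all below Control though not called, and the ICR mean was 49.9% ± 4.3 (SD, n = 5). Obese mouse 22 had 52.4%, within the Control range.

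**Figure D5:**
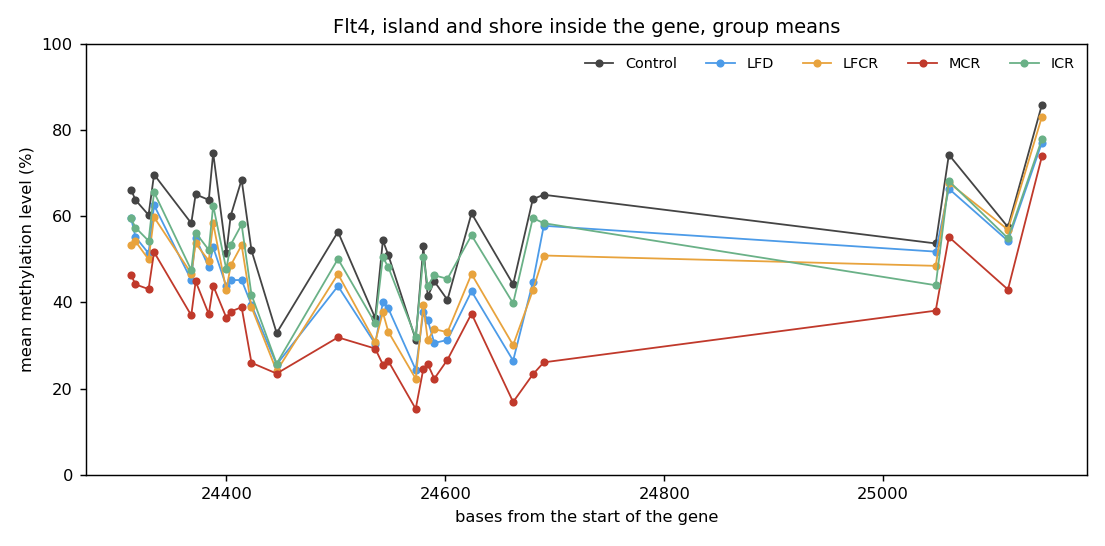
Mean methylation level in percent (y axis) of the CpGs of the Flt4 island and the shore beside it against distance in bases from the start of the gene (x axis), 1 line per group. Control lies highest and MCR lowest over most CpGs, with LFCR, LFD and ICR between them.

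The 2 other Flt4 runs were lower in MCR with smaller differences. The shore run at 25 kb (chr11:49634727-49634824, 4 CpGs) had 70.1%, 71.5%, 69.5%, 63.4% and 64.7% in Control and 46.9%, 53.8% and 56.9% in MCR, without overlap (-15.3 points, adjusted p = 0.00259). At 16.2 kb (chr11:49625911-49625924, 3 CpGs) the levels were 80.5%, 90.1%, 85.8%, 80.4% and 79.1% and 74.4%, 69.4% and 78.6% (adjusted p = 0.0165), and without MCR mouse 95 the difference was -6.71 points (adjusted p = 0.103). Neither was called relative to the mouse means (-5.98 and 0.251 points).

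Notch4, an endothelial Notch receptor, spans chr17:34564286-34588543 and had 11 CpGs lower and none higher of 27 tested. The run 573 to 711 bases into the gene (chr17:34564859-34564997, 3 CpGs, body) had 74.5%, 76.7%, 64.8%, 58.2% and 77.5% in Control and 30.5%, 45.5% and 40.9% in MCR. All MCR mice were below Control, by -31.4 points (SE 7.33, adjusted p = 0.00166), and by -22.1 points relative to the mouse means (adjusted p = 0.00593). LFCR mice had 36.3%, 33.3%, 46.8% and 71.3% (difference -23.4 points, adjusted p = 0.0151), and mouse 72 lay inside the Control range.

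At 15.4 kb (chr17:34579710-34579861, 4 CpGs) Notch4 had 85.8%, 93.3%, 86.8%, 85% and 89.2% in Control and 75%, 78% and 76.1% in MCR (adjusted p = 0.00129). LFCR mice had 78%, 78.2%, 85% and 85.1% there (adjusted p = 0.0409), a call lost without Control mouse 2, 5 or 13 or LFCR mouse 63 or 67. That of MCR was -2.33 points relative to the mouse means and not called. At 4.1 kb (chr17:34568431-34568454, 3 CpGs) the means were 75.7% ± 6.35 (SD, n = 5) and 69.3% ± 1.72 (SD, n = 3), adjusted p = 0.123, and without Control mouse 10 the difference was -9 points (adjusted p = 0.02). The Notch4 CpG of smallest p was at 34583860, with 91.8% ± 3.6 (SD, n = 5) and 77.1% ± 4.95 (SD, n = 3). The one of largest difference was at 34564997 in the run near the start, with 64% ± 11.9 (SD, n = 5) and 26.7% ± 5.5 (SD, n = 3). By contrast 7 tested Notch4 CpGs near its 3' end, 5 of them in an island, were below 5% in Control.

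Robo4, the endothelial roundabout receptor that acts in vessel stability, spans chr9:37401902-37414023 and had 6 CpGs lower and none higher of 8 tested. Its run at 6.3 kb (chr9:37408198-37408274, 5 CpGs, body) showed the largest difference of the 20 runs. Control mice had 53.8%, 69.4%, 58%, 62.4% and 57.3% and MCR mice 11%, 18.1% and 21.8%, far from overlap (-43.2 points, SE 9.53, adjusted p = 0.00116). The difference was -34 points relative to the mouse means (adjusted p = 0.00268). LFCR mice 63 and 67 had 11.8% and 15.1% and mice 69 and 72 had 42.6% and 52.7%, all below Control (-29.6 points, adjusted p = 0.0167).

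The other groups spread widely at this Robo4 run. LFD mice had 14.7%, 46.3% and 36.2% and ICR mice 37.9%, 22.7%, 67.1%, 47.7% and 51.6%, neither called, and Obese mouse 22 had 65.7%. The CpG at 37408221 in it had 59.1% ± 9.6 in Control (SD, n = 5) and 11.2% ± 3.04 in MCR (SD, n = 3). The run 772 to 874 bases into the gene (chr9:37402674-37402776, 3 CpGs) had 69.6%, 65.2%, 79.8% and 70.2% in Control mice 2, 5, 10 and 13 and 52.9%, 57.9% and 49.6% in MCR (adjusted p = 0.00952), and was not called relative to the mouse means (-8.52 points). Its CpG at 37402674 was the one of smallest p in Robo4, with 87.5% ± 5.11 (SD, n = 4) and 52.9% ± 4.14 (SD, n = 3). The table lists the 11 Robo4 CpGs also in rows with no gene symbol, and so too the 15 of Egfl7.

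Kdr encodes VEGFR2, the main VEGF-A receptor, and none of its 19 CpGs could be tested. An island holds 7 of them, with group means of 0% to 16.5% in Control, from 2 to 4 mice, and 0% to 18.1% in MCR, from 2 to 3 mice. The 7 body CpGs outside the island had 80% to 91% in Control, from 1 to 3 mice, and 27.3% to 81.8% in MCR, from 1 to 2 mice. The 5 CpGs of the 3'UTR had 13.1% to 34.5% in Control and 34.9% to 62.5% in the 1 MCR mouse with a value. These values are too thin for a comparison.

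Of the junction genes, Cdh5 (VE-cadherin) has 2 body CpGs, 38 bases apart, with 49.1% and 33.5% in 4 Control mice and 27.3% at both in 1 MCR mouse. Neither was tested. Esam, an endothelial adhesion molecule of tight junctions, spans chr9:37528089-37538319 and has 1 run, 3438 to 3516 bases from its start (chr9:37531527-37531605, 6 CpGs that the table labels first exon). Control mice had 30.7%, 22.7%, 19.2%, 25.5% and 16.8% and MCR mice 8.37%, 10.1% and 14.1%, without overlap (-12.1 points, SE 3.65, adjusted p = 0.00826). LFCR mice had 12.1%, 7.92%, 13.6% and 15.1%, all below Control (-10.8 points, adjusted p = 0.0201). That LFCR call was lost without Control mouse 1 or LFCR mouse 63 or 67 (adjusted p = 0.0501, 0.0652 and 0.0818).

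The Esam run was not called in MCR relative to the mouse means (-2.81 points). Its LFD and ICR means were 12.8% ± 3.52 (SD, n = 3) and 16.1% ± 7.05 (SD, n = 5), and Obese mouse 22 had 17%. Of 10 tested single CpGs of Esam, 2 were lower, where 32.8% of all CpGs were. The one of smallest p had 36.8% ± 7.78 in Control (SD, n = 4) and 12.5% ± 6.02 in MCR (SD, n = 3), adjusted p = 0.0019. The largest difference, -29.4 points at 37531576, had an adjusted p of 0.0518, with a Control SD of 25.8, and of 0.0307 and 0.0382 without Control mouse 5 or 13. Control mouse 1 was at 100% there and the other Control mice at 36.7% to 60%. Leaving out 1 mouse at a time gave differences from -34.4 to -18.6 points.

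Egfl7 encodes a secreted matrix protein of endothelial cells and hosts the microRNA miR-126 within the gene (chr2:26581083-26592682). Of its 10 tested CpGs, 8 were lower in MCR and none higher. The run at 8.2 kb (chr2:26589331-26589445, 3 CpGs) had 84.8%, 84%, 76.3%, 73.2% and 79.8% in Control and 51.1%, 46.9% and 54.4% in MCR. No mouse overlapped, and the difference was -28.8 points (SE 5.5, adjusted p = 0.000508) and -19.5 points relative to the mouse means (adjusted p = 0.00141). LFCR mice 63 and 67 had 43.6% and 47.9%, close to the MCR mice, and mice 69 and 72 had 74.3% and 72% (adjusted p = 0.00965).

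Single Egfl7 CpGs differed more than the run. At 26589003 Control had 60.8% ± 4.72 (SD, n = 5) and MCR 21.7% ± 2.49 (SD, n = 3), adjusted p = 0.000833. At 26590132 it was 71.5% ± 6.1 (SD, n = 5) and 24% ± 3.88 (SD, n = 3), adjusted p = 0.00114. Another 5 CpGs lie 3 to 317 bases before the hairpin of miR-126 (chr2:26591357-26591429), the vessel-enriched microRNA, shown here with its seed, bases 2 to 8, in capitals.
mmu-miR-126a-3p: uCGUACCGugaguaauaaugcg
These 5 CpGs were at 73.6% to 80.4% in Control and at 35% to 68.6% in MCR, where only 1 or 2 mice had a value, so none was tested. In LFCR they were at 53% to 68.8%.

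After low-fat calorie restriction fewer endothelial CpGs were called. In LFCR against Control 34 of the 180 CpGs were lower and none higher, 18.9% next to 12.1% lower and 1.48% higher of all CpGs, with a median of -7.89 points against -4.51 points. By gene these were Nos3 12, Flt4 7, Egfl7 5, Eng 4, Robo4 4, Notch4 1 and Esam 1. Of the 20 runs 10 were lower and none higher, where 35.4% and 4.28% of all runs were. The 10 are 3 in Nos3, 2 in Notch4 and 1 each in Eng, Flt4, Robo4, Esam and Egfl7, and each of these was lower in MCR too. Both contrasts use the same Control mice.

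Most LFCR calls ended when LFCR mouse 63 or 67 was left out, though some differences hardly moved. Without mouse 63 the Flt4 island run was at -12 points (adjusted p = 0.0506), next to -12.2 points with all mice. The Esam run stayed at -10.8 points (adjusted p = 0.0652). Without mouse 63 or without mouse 67, 1 run and no CpG was called; the run is that of Nos3 at 18.5 kb. The mean levels of these 2 mice over the CpGs read in all libraries were 46.5% and 47.1%, in the range of the MCR mice, and those of mice 69 and 72 were 52.1% and 54.5%. The count of CpGs was 16, 2, 22 and 13 without Control mouse 1, 2, 5 or 13 and 61 without LFCR mouse 72. Calls over all CpGs and runs were not counted with a mouse left out, so no share stands beside these counts. Relative to the mouse means 4 runs were lower in LFCR (Nos3 start, Notch4 near the start, Egfl7 and Robo4 at 6.3 kb) and 2 higher (the starts of Eng and Tie1), and 13.2% and 11.1% of all runs were.

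In the unrestricted low-fat and intermittent groups no endothelial site passed the test. For LFD against Control none of the 180 CpGs and none of the 20 runs was called by limma, with 48 CpGs and 7 runs at an unadjusted p under 0.05. Over all features 0% of CpGs and 0.0607% of runs were called at an adjusted p under 0.05. The shares of all features at an unadjusted p under 0.05 were not counted, for LFD or for ICR below. The median differences were -6 points at the endothelial CpGs and -3.07 points at all CpGs. Without LFD mouse 47, 4 endothelial runs were called, 3 lower and 1 higher. Calls over all runs were not counted without this mouse, so that count has no share to be read against. For ICR no CpG and no run was called, here or over the whole table (0%), with 29 CpGs and 4 runs at an unadjusted p under 0.05 and a median of -3.42 against -2.11 points. Both medians were negative, as in MCR.

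The diets were also compared with each other. MCR and LFCR, the 2 diets with 30% restriction, differed at none of the 20 runs (0% of all runs called; 3 of the 20 at an unadjusted p under 0.05; median -5.81 points, and -3.53 points over all runs). Adding restriction to the low-fat diet, LFCR against LFD, gave none either, with 0% of all runs called and 0 of the 20 at an unadjusted p under 0.05. The median was -0.926 points, and -1.84 points over all runs. For MCR against LFCR and LFCR against LFD the smallest adjusted p were 0.357 and 0.857. The shares of all runs at an unadjusted p under 0.05 were not counted. With 3 or 4 mice a group and the split within LFCR, these comparisons do not show that the diets act alike.

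A wider list of 85 genes of vessel receptors, ligands, junction proteins and transcription factors was examined the same way. Like the 10 genes, it was chosen with earlier results of these data known and is no independent check. A run was found in 35 of them, 113 runs in all, and in MCR 80 runs were lower and 4 higher (median -13.6 points), where 57.1% and 7.2% of all runs were (median -9.47 points). By role, 22 of 30 receptor and signal runs, 9 of 12 ligand runs, 26 of 39 junction and surface runs and 23 of 32 transcription factor runs were lower, with 1 higher in each role. The lower runs of smallest p were in Notch1, a Notch receptor, with 62% ± 9.63 in Control (SD, n = 5) and 11.1% ± 1.7 in MCR (SD, n = 3), in Smad6, an inhibitor of BMP signalling, with 63.9% ± 7.5 (SD, n = 5) and 20.3% ± 0.961 (SD, n = 3), and in Exoc3l2, with 68.5% ± 5.44 (SD, n = 5) and 35.9% ± 1.6 (SD, n = 3). Each had an adjusted p of 0.000285.

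The 4 higher runs lie in gene bodies, in Vwf, which encodes von Willebrand factor, with 28.9% ± 9.15 (SD, n = 5) in Control and 62.2% ± 0.753 (SD, n = 3) in MCR (adjusted p = 0.000845), in another run of Smad6 (36.7% ± 7.68, SD, n = 5, and 68.2% ± 5.95, SD, n = 3), in Slit3, a ligand of the Robo receptors (45.7% ± 8.1, SD, n = 4, and 61.7% ± 4.54, SD, n = 3, adjusted p = 0.0195) and in Gata2, a transcription factor gene (19.5% ± 2.69, SD, n = 5, and 24.2% ± 2.55, SD, n = 3, adjusted p = 0.0427). Gata2 was named after its values were seen, the others by rule. In LFCR 52 of the 113 runs were lower and 2 higher, where 35.4% and 4.28% of all runs were, and in LFD and ICR none was called.

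Genes that mark other cells of the fat pad also had called runs in MCR, to be read against 57.1% lower and 7.2% higher of all runs, and their part in the endothelial result was not tested. Of 26 runs in 12 leukocyte genes, 11 were lower and 10 higher (median 1.31 points). The 16 runs in 4 adipocyte genes were lower in 10 cases and higher in 2, and the 12 runs in 6 luminal epithelial genes lower in 5 and higher in 1. Fibroblast and mural genes had 14 of 15 runs lower and none higher, but these come from 2 genes.

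The Flt4 island and Eng start runs were set beside all runs of other genes whose SD over the 21 libraries was at least 5 points, 9947 runs in all. The Flt4 island was most like runs in Ttc7 (Pearson r = 0.959 over 21 libraries), Tjap1 (0.946), Furin (0.942) and a run shared by Fbxo31 and Gm20388 (0.942). The Eng start was most like runs in Zfp316 (0.882), one shared by Piezo1 and Gm20388 (0.874), Myorg (0.872 over 20 libraries) and Zbtb7b (0.864). All these values come from the same libraries and share their depth and mean level.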

How the data were processed

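The authors' deposited table gives, for each of 25 libraries, the methylated fraction of reads at each CpG (made with Bismark on mm10, per the submitters' processing notes, no version given) and an average coverage, which the deposited values show to be over 21 libraries, since it is whole when multiplied by 21 (tolerance 1e-06). Fractions were multiplied into percent. Of 283974 CpGs, 38 on other sequences were left out. Tested CpGs had coverage of at least 10 and values in at least 3 mice of Control, LFD, LFCR, MCR and ICR. A run's level per mouse is the mean of the CpG means plus the mouse's mean deviation from them, over at least 0.5 of the CpGs. One limma model (limma 3.58.1, R 4.3.3; 1 term per group, two-sided, Benjamini-Hochberg over all features, 0.05) was fitted to all features and tested on simulated data. Replicates are separate mice. The genes and lists were chosen with earlier results of these data known. Every run is named; per-mouse values are given for the called runs and, per gene, the CpGs of smallest p and largest difference are named. Alternatives were other coverage minima, run definitions, scales, library sets and leaving out each mouse of the groups compared. The setting with values in at least 2 mice was chosen after seeing the data.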

Additional observations from a re-analysis of the deposited data

Results flagged for a closer look

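At 3 run levels a mouse lay far from the others of its group, among 60 groups of 4 or 5 mice examined, where chance flags about 1 in 20. At the Nos3 run at 24367426, LFCR mouse 69 had 64.9% and the others 57.9% to 58.9%. At the Tie1 run at 118484131, Control mouse 10 had 76.3% and the others 84.4% to 86.9%, and LFCR mouse 69 had 83% and the others 75.9% to 76.8%.

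The 4 libraries left out had signal where Control has nearly none. At the 12 tested endothelial CpGs below 5% in Control, Obese mouse 27 had 51.6%, Obese mouse 28 had 49.9%, Obese mouse 40 had 60.3% and LFD mouse 46 had 55.7%, next to 1.04% to 2.28% in the Control mice.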

How the results depend on the processing

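The cause of each shift below was not tested, beyond the smaller number of tested features where one is given. With all 25 libraries, 31 of 103 CpGs and 9 of 13 runs were called in MCR, and 3 CpGs and 3 runs in LFCR. Of all 8276 runs then tested, 4269 were lower and 528 higher in MCR, and 2209 and 247 in LFCR. Over all CpGs 19176 were lower and 2400 higher in MCR, and 2118 and 198 in LFCR. Relative to the mouse means, 9 runs were called in MCR, and 11 CpGs and 6 runs in LFCR. Of all 129217 CpGs 6282 were lower and 4575 higher in LFCR on that scale, and the shares of all runs are given above. With runs of at least 5 CpGs, 7 of 9 were called in MCR and 6 in LFCR. Of all 5934 such runs, 3828 were lower and 557 higher in MCR, and 2752 and 363 in LFCR. Relative to the mouse means, 4 MCR run differences turned positive, none of them called on that scale: Eng at 32681361 (3.74 points), Flt4 at 49625911 (0.251), Nos3 at 24367426 (4.52) and Notch4 at 34568431 (2.93). With all 25 libraries the Nos3 run at 24367426 was at 1.2 points. Leaving out 1 mouse of the groups compared at a time gave 70 to 95 called endothelial CpGs and 15 to 17 runs in MCR. It gave 0 to 61 CpGs and 1 to 11 runs in LFCR, 0 to 4 runs in LFD, and 0 elsewhere. No share of all CpGs or runs was counted with a mouse left out. A coverage minimum of 5 gave the same runs and counts as 10 and so says nothing about stability. With a minimum of 20, or on the arcsine square root scale, the 51 single runs and CpGs compared stayed on their side of the threshold. No paired analysis was possible because the labels give each mouse its own number. Read depth per library is unknown, so no counting error could be given.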
